A study of Mus musculus with 15 samples.

Results

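Sirtuins are enzymes that remove acetyl and other acyl groups from lysines of proteins and consume NAD+ in doing so. Human cells have a small family of them, which differ in place. SIRT1, SIRT6 and SIRT7 are mainly nuclear, SIRT2 is mainly cytosolic, and SIRT3, SIRT4 and SIRT5 are imported into mitochondria. In tumour cells the family is known for tying NAD+ supply to chromatin state, DNA repair, the cell cycle and mitochondrial fuel use. The members described here are the 7 genes SIRT1 to SIRT7, taken by their symbols from 56967 gene names used, of which 19051 had enough counts to be tested. All 7 sirtuins were among those tested.

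The study sequenced poly(A)-selected RNA from 5 groups of 3 libraries, 15 in all. All cells were labelled MDA-MB-468, an established line from an invasive breast carcinoma of basal-like type, and all carried a short hairpin RNA. The control group NC had a control hairpin. The groups shSHCBP1_1 and shSHCBP1_2 each had a hairpin against SHCBP1, a protein that binds the adaptor SHC1 and acts in dividing cells, and the remaining groups each had a hairpin against TMEM45A, a transmembrane protein. The columns of the shTMEM45A groups are numbered 2 and 4 and are called set 2 and set 4 here. The numbers in set 4's columns could not be tied to its labelled libraries. NC stands in a count table together with the shSHCBP1 libraries, and the shTMEM45A libraries fill a second table, and for shTMEM45A against NC or shSHCBP1 the target cannot be told apart from the table. Separate cultures are not mentioned for the libraries of a group, so what p-values measure here is library-to-library spread, and this may be technical.

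Libraries held from 13780294 to 16484000 counts. SHCBP1 was not lower in the libraries labelled shSHCBP1: it was at 44.1 ± 2.53 CPM (counts scaled to library size) in NC (SD, n = 3), 47.1 ± 1.25 in shSHCBP1_1 and 44.3 ± 1.11 in shSHCBP1_2. Scaled by totals alone, its change in shSHCBP1_1 passed as higher (0.24, adjusted p = 0.0202). TMEM45A, at 26.6 ± 2.09 CPM in NC, was lower in set 4 at 17.8 ± 1.86 and in set 2 at 19.4 ± 0.761, with adjusted p = 8.80e-06 and 0.000181. In sets 4 and 2, 38.9% and 39.8% of all genes tested were called lower. There 31.9% and 36.6% of genes had a lower log2 change than TMEM45A. Of the 12 basal-like breast markers listed, KRT5, KRT6A, KRT6B, KRT16 and TP63 had no count in NC, while EGFR stood at 16.4 CPM. Of 8 genes listed for embryonic kidney lines, NEFM stood at 256, NEFL at 177, INA at 43.0, PAX2 at 15.9, EYA1 at 7.88, LHX1 at 6.62 and PAX8 at 0.0232 CPM in NC. Their summed level ran from 525 to 540 CPM in NC and from 195 to 245 in the shTMEM45A libraries. Most of that difference lay in NEFM and NEFL, while INA at 44.8 and EYA1 at 7.82 CPM in set 2 stood near their NC levels. The summed level of 12 epithelial markers ran from 147 to 148 CPM in NC and from 277 to 316 in the shTMEM45A libraries. Most of that sum was KRT8, at 79.8 in NC, 148 in set 4 and 144 in set 2, and KRT18, at 44.8, 127 and 139. CDH1 went the other way, at 12.1 in NC, 6.98 in set 4 and 6.31 in set 2, and KRT19, KRT7, ESRP1 and GRHL2 were near 0 throughout. The part of these markers in the results below was not tested. The summed leukocyte markers stayed at or below 8.90 CPM in every library, with PTPRC at 0 in NC.

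Sirtuin transcripts differed from NC mainly in the shTMEM45A libraries, where SIRT4, SIRT7, SIRT2 and SIRT6 were higher and SIRT1 was lower. In the shSHCBP1 libraries SIRT4 and SIRT7 were higher, and in shSHCBP1_2 also SIRT6. SIRT5 did not pass in any comparison under TMM scaling. In bulk RNA, fewer cells of a type and less RNA per cell cannot be told apart. Counts of sirtuins are best read against the share of all tested genes that passed an adjusted p of 0.05 (edgeR quasi-likelihood test). In shSHCBP1_1, 2 of 7 sirtuins rose, against 9.34% of all genes tested. None fell there, against 10.5%, where an unadjusted p under 0.05 gave 1 lower sirtuin, DESeq2 gave 1 and limma voom gave 0. In shSHCBP1_2, 3 of 7 rose, against 15.6%. None fell, against 15.4%, and here too the unadjusted p gave 1, DESeq2 1 and limma voom 0. In set 4, 4 rose and 1 fell, against 35.6% of all genes higher and 38.9% lower. In set 2, 5 rose and 1 fell, against 36.1% and 39.8%, and DESeq2 called 4 higher there, without SIRT3. The median log2 change of the 7 sirtuins was 0.01 in shSHCBP1_1, 0.07 in shSHCBP1_2, 0.50 in set 4 and 0.35 in set 2, beside 0.01, 0.01, -0.03 and -0.04 for all genes tested. These comparisons share the NC libraries, so their values are given side by side and are not independent of each other.

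**Figure D1:**
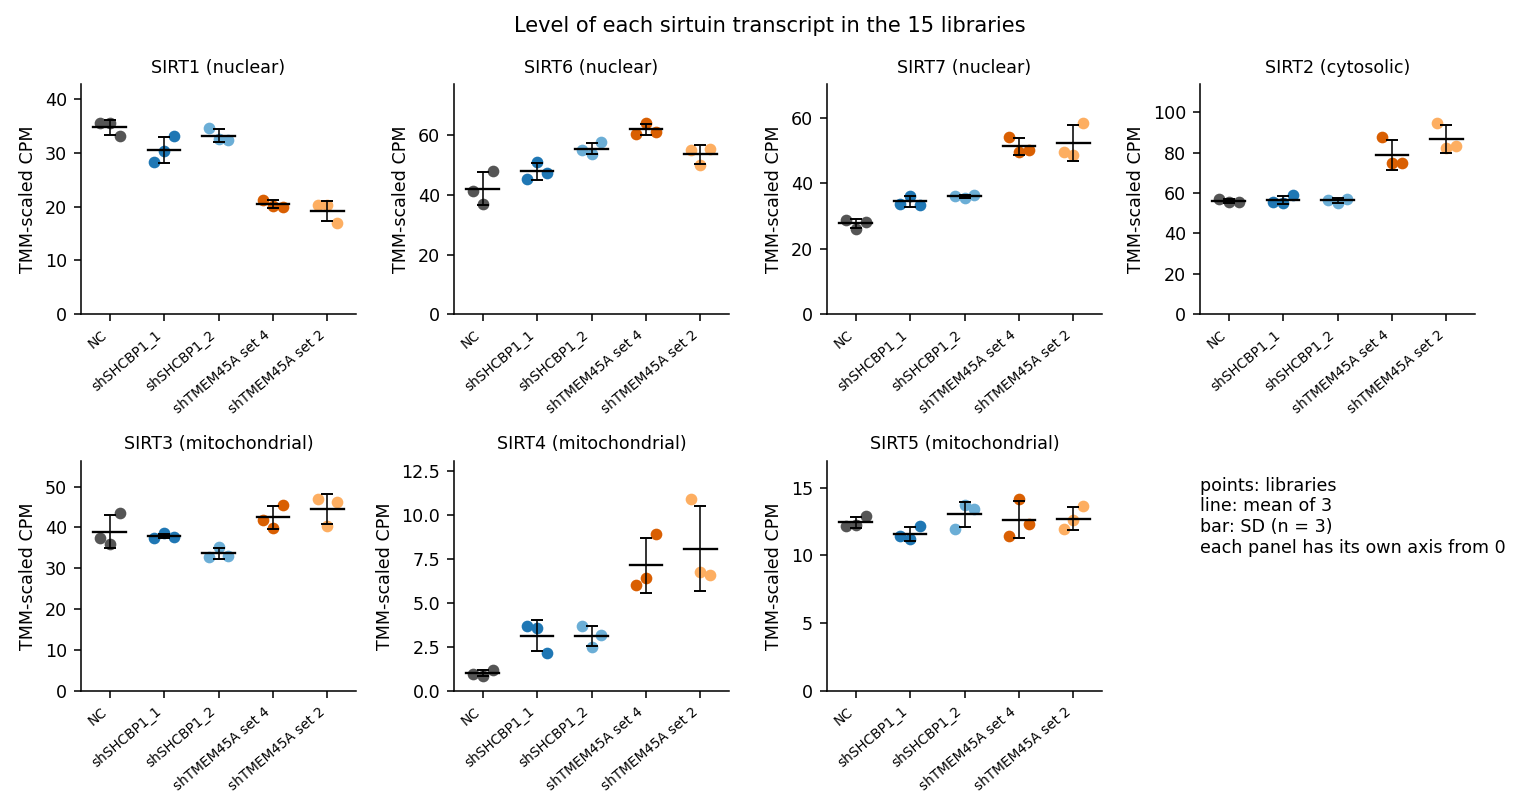
Level of each sirtuin in the 15 libraries, in TMM-scaled CPM (y, from 0, a separate scale in each panel) by group (x). Points are libraries, lines are means and bars are SD of 3. SIRT4 stands at 0.840 to 1.17 CPM in NC and at 6.04 to 10.9 in the shTMEM45A libraries, and SIRT1 at 33.1 to 35.6 in NC and 17 to 21.3 in the shTMEM45A libraries.

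Among the nuclear sirtuins, SIRT1 deacetylates histones, p53 and FOXO factors and is the best studied member. It stood at 35.5, 35.6 and 33.1 CPM in the 3 NC libraries, at 28.3, 30.2 and 33.1 in shSHCBP1_1 and at 34.6, 32.6 and 32.3 in shSHCBP1_2. The shTMEM45A libraries gave 21.3, 20.1 and 19.8 in set 4 and 20.3, 20.3 and 17 in set 2. Every shTMEM45A library lay below every other library. On the log2 scale SIRT1 fell by 0.77 in set 4 (SE 0.0899, adjusted p = 7.32e-09) and by 0.85 in set 2 (SE 0.0904, adjusted p = 7.96e-10), a level 0.588 and 0.553 of that in NC. The change was -0.19 in shSHCBP1_1 (adjusted p = 0.129) and -0.07 in shSHCBP1_2 (adjusted p = 0.604), which did not pass. The change in shSHCBP1_1 passed with RLE scaling (adjusted p = 0.0302) and with DESeq2 (adjusted p = 0.0225). In order of mean level, set 2 and set 4 overlapped, shSHCBP1_1 stood clear of both, and shSHCBP1_1, shSHCBP1_2 and NC each overlapped the next.

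SIRT6 acts on histone H3 at telomeres and at genes of glucose metabolism, and takes part in DNA repair. Its level was 41.4, 36.9 and 48.0 CPM in NC, 45.3, 51.0 and 47.4 in shSHCBP1_1 and 55.2, 53.7 and 57.7 in shSHCBP1_2. In set 4 it was 60.6, 64.2 and 61.2, and in set 2 it was 55.2, 49.9 and 55.5. NC was the most scattered group and its highest library overlapped shSHCBP1_1 alone. SIRT6 rose by 0.40 in shSHCBP1_2 (SE 0.0787, adjusted p = 0.000207), by 0.56 in set 4 (SE 0.0788, adjusted p = 2.41e-07) and by 0.35 in set 2 (SE 0.0795, adjusted p = 0.000268). In shSHCBP1_1 the change of 0.19 did not pass (adjusted p = 0.102), but passed without NC replicate 3 (0.30, adjusted p = 0.0127), with totals alone as scaling (0.33, adjusted p = 0.00220) and with only the libraries compared (0.19, adjusted p = 0.0385). In set 2 the call was lost when libraries were scaled by their totals alone (0.16, adjusted p = 0.0702).

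SIRT7 is enriched in the nucleolus, where it acts at ribosomal DNA, and it also removes acetyl groups from histone H3. It stood at 28.7, 26.1 and 28.2 CPM in NC. The libraries of shSHCBP1_1 gave 33.7, 36.2 and 33.3, and those of shSHCBP1_2 gave 36.2, 35.5 and 36.4. Set 4 gave 54.0, 49.5 and 50.1 and set 2 gave 49.6, 48.6 and 58.4. The NC libraries were the lowest, the shSHCBP1 libraries came next and the shTMEM45A libraries were the highest, with no overlap between these tiers. SIRT7 rose by 0.31 in shSHCBP1_1 (SE 0.0807, adjusted p = 0.00574) and by 0.38 in shSHCBP1_2 (SE 0.0807, adjusted p = 0.000514). It rose by 0.89 in set 4 (SE 0.0795, adjusted p = 2.27e-11) and by 0.91 in set 2 (SE 0.0793, adjusted p = 9.90e-12), which is 1.85 and 1.88 times the NC level. Although it passed throughout, 77.8% of all genes tested had a lower log2 change than SIRT7 in set 4 and 79.2% in shSHCBP1_1, so that many genes lay higher.

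SIRT2, the cytosolic member, deacetylates tubulin and mitotic regulators and enters the nucleus during mitosis. Its level was 57.1, 55.4 and 55.6 CPM in NC, 55.7, 55.1 and 59.0 in shSHCBP1_1 and 56.8, 55.1 and 57.2 in shSHCBP1_2. It was 87.7, 74.7 and 74.9 in set 4 and 94.8, 82.3 and 83.5 in set 2. The NC and shSHCBP1 libraries formed a narrow band, and all 6 shTMEM45A libraries lay above it. SIRT2 rose by 0.50 in set 4 (SE 0.0696, adjusted p = 2.03e-07) and by 0.63 in set 2 (SE 0.0692, adjusted p = 1.66e-09). In the shSHCBP1 groups the change was 0.01 in each, with 95% intervals from -0.12 to 0.15 and from -0.13 to 0.15. A larger change therefore lay outside the interval in either group.

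Of the mitochondrial members, SIRT3 is the main deacetylase of the matrix. It stood at 37.4, 35.8 and 43.5 CPM in NC, 37.5, 38.5 and 37.7 in shSHCBP1_1 and 32.8, 35.2 and 33.1 in shSHCBP1_2. Set 4 gave 41.9, 39.9 and 45.4 and set 2 gave 46.9, 40.3 and 46.2. Both shTMEM45A groups overlapped NC, while shSHCBP1_2 lay below it. SIRT3 was called higher in set 2 (0.19, SE 0.0811, adjusted p = 0.0345) and not in set 4 (0.12, adjusted p = 0.171) or in shSHCBP1_1 (-0.04, adjusted p = 0.801). The call in set 2 held in 6 of 15 alternative settings and was lost without NC replicate 1, without NC replicate 2 and without either the first or the third library of set 2, with changes of 0.12 to 0.16. It was also lost with RLE scaling and DESeq2 (0.17 each), without a filter (0.15) and with only the libraries compared (0.20), and scaling by totals brought the change to 0.00026 (adjusted p = 0.998). In set 4 the change passed without NC replicate 3 (0.21, adjusted p = 0.0304) and with upper-quartile scaling (0.19, adjusted p = 0.0434). The change of -0.21 in shSHCBP1_2 (adjusted p = 0.0523) passed in 5 of 15 settings, among them DESeq2 (adjusted p = 0.00559) and the fit without NC replicate 2 (-0.27, adjusted p = 0.0310).

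SIRT3 shares a bidirectional promoter with PSMD13, a subunit of the proteasome's regulatory particle, on the opposite strand, so PSMD13 was read beside it. PSMD13 stood at 124 ± 5.57 CPM in NC, 119 ± 2.65 in shSHCBP1_1, 121 ± 2.18 in shSHCBP1_2, 255 ± 15.7 in set 4 and 280 ± 16.9 in set 2 (SD, n = 3). It rose by 1.04 in set 4 and by 1.17 in set 2 (adjusted p = 6.24e-17 and 2.47e-18), and its changes of -0.06 and -0.03 in the shSHCBP1 groups did not pass. The library kit does not mark strand, so reads where neighbouring genes overlap cannot be assigned to either.

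SIRT4 acts in mitochondria as a lipoamidase and ADP-ribosyltransferase and restrains glutamine use. It was the member with the fewest reads, with 14, 12 and 17 counts in NC, or 0.972, 0.840 and 1.17 CPM. It reached 3.69, 3.60 and 2.14 CPM in shSHCBP1_1 and 3.67, 2.51 and 3.19 in shSHCBP1_2. Set 4 gave 6.04, 6.45 and 8.93 and set 2 gave 10.9, 6.76 and 6.61, from 88 to 150 counts a library. As with SIRT7, NC, shSHCBP1 and shTMEM45A libraries formed tiers without overlap. SIRT4 was 3.15-fold higher in shSHCBP1_1 (log2 1.65, SE 0.312, adjusted p = 0.000249) and 3.12-fold higher in shSHCBP1_2 (log2 1.64, SE 0.314, adjusted p = 0.000145). It was 7.10-fold higher in set 4 (log2 2.83, SE 0.291, adjusted p = 4.81e-10) and 8.06-fold higher in set 2 (log2 3.01, SE 0.288, adjusted p = 9.09e-11). At least 98.2% of all genes tested had a lower log2 change in each of the 4 comparisons, which places SIRT4 apart from the other sirtuins in size of change. The standard error of SIRT4 was more than 3 times that of SIRT7 in each comparison with NC.

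SIRT5 removes succinyl, malonyl and glutaryl groups from mitochondrial and cytosolic proteins. Its levels ran from 12.1 to 12.9 CPM in NC, from 11.2 to 12.1 in shSHCBP1_1, from 12 to 13.7 in shSHCBP1_2, from 11.5 to 14.1 in set 4 and from 11.9 to 13.7 in set 2. Its highest group mean was 1.12 times its lowest. The changes against NC were -0.10 in shSHCBP1_1, 0.07 in shSHCBP1_2, 0.02 in set 4 and 0.03 in set 2. The 95% intervals ran from -0.34 to 0.13, from -0.17 to 0.30, from -0.22 to 0.26 and from -0.21 to 0.27, so changes inside these bounds could not have been told from none in these libraries.

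**Figure D2:**
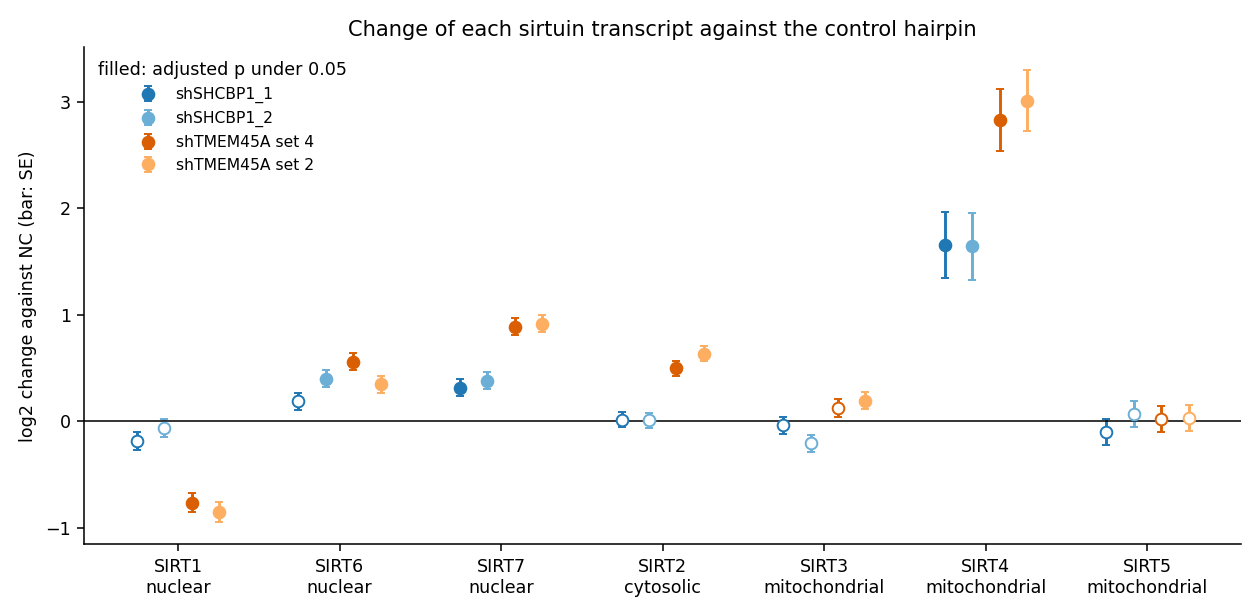
Log2 change of each sirtuin against NC (y), with SE as bars, for the 4 hairpin groups (colours), ordered by place of the protein (x). Filled points had an adjusted p under 0.05. SIRT4 stands at 1.64 to 3.01, SIRT1 at -0.77 and -0.85 in the shTMEM45A sets, and SIRT5 within 0.11 of 0; under total-count scaling SIRT3 in set 4 and SIRT5 in both sets change sign.

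The summed level of the nuclear sirtuins was 104 ± 5.45 CPM in NC, 113 ± 5.14 in shSHCBP1_1, 125 ± 2.48 in shSHCBP1_2, 134 ± 2.34 in set 4 and 125 ± 6.06 in set 2 (SD, n = 3). SIRT1 made up less of that sum in the shTMEM45A libraries. Its share of all sirtuin counts was 16.3 ± 1.35% in NC, 7.42 ± 0.125% in set 4 and 6.94 ± 0.866% in set 2, while the share of SIRT7 went from 13 ± 0.418% to 18.6 ± 0.407% and 18.8 ± 1.84%. The ratio of SIRT7 to SIRT1 counts was 0.799 ± 0.0596 in NC, 1.13 ± 0.109 in shSHCBP1_1, 1.09 ± 0.0390 in shSHCBP1_2, 2.51 ± 0.0397 in set 4 and 2.76 ± 0.586 in set 2. A ratio within a library does not depend on how libraries are scaled, and here the 5 groups fell into the same 3 tiers as SIRT7 itself.

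The ratio of SIRT6 to SIRT1 was 1.22 ± 0.210 in NC, with 1.57 ± 0.129 and 1.68 ± 0.0968 in the shSHCBP1 groups and 3.04 ± 0.178 and 2.82 ± 0.410 in sets 4 and 2. The mitochondrial sum was 52.4 ± 4.64 CPM in NC, 62.2 ± 3.90 in set 4 and 65.3 ± 5.12 in set 2. Within it the ratio of SIRT4 to SIRT5 was 0.0798 ± 0.0112 in NC, 0.274 ± 0.0846 and 0.243 ± 0.0616 in the shSHCBP1 groups and 0.570 ± 0.140 and 0.645 ± 0.235 in sets 4 and 2. SIRT4 thus remained the smallest part of the mitochondrial sum in counts. Counts were not divided by transcript length, so sums and ratios are compared between groups and not between genes.

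**Figure D3:**
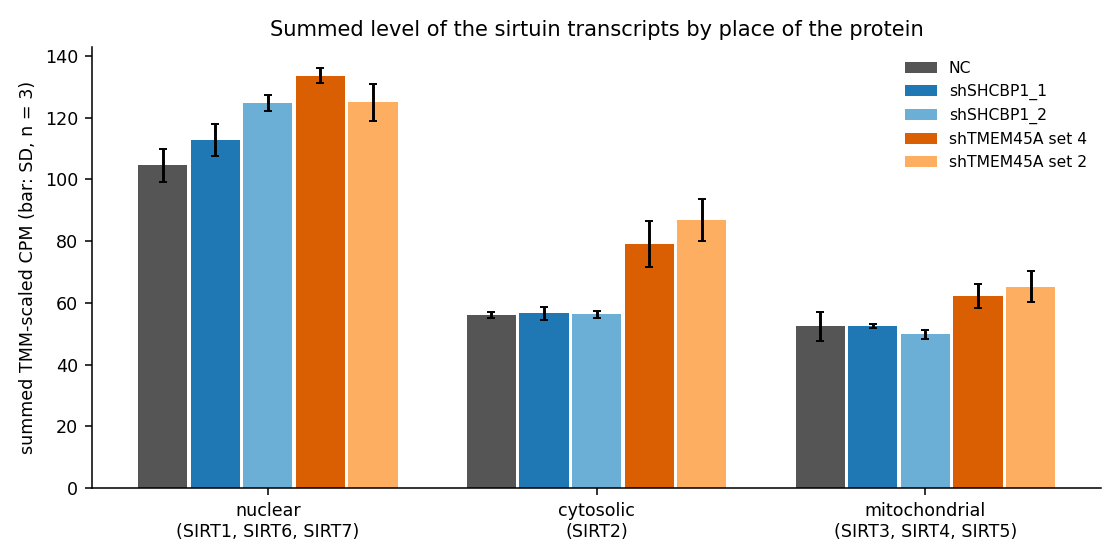
Summed TMM-scaled CPM (y, from 0) of the nuclear, cytosolic and mitochondrial sirtuins (x) in the 5 groups (colours); bars show the mean and SD of 3 libraries. The nuclear sum is 104 in NC and 134 in set 4, and the cytosolic sum (SIRT2 alone) 56.1 in NC and 86.9 in set 2. Sums are not comparable between places, since transcript lengths differ.

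The shTMEM45A and shSHCBP1 libraries were also compared directly, which leaves NC out. Relative to the mean of both shSHCBP1 groups, 5 of 7 sirtuins were higher in the shTMEM45A groups, against 35.2% of all genes tested, and 1 was lower, against 44.1%. SIRT1 was lower by 0.68 on the log2 scale, and SIRT2 was higher by 0.55, SIRT4 by 1.27 and SIRT7 by 0.56. All 6 shTMEM45A libraries lay outside the range of the shSHCBP1 libraries for SIRT1, SIRT2, SIRT3, SIRT4 and SIRT7. How many of all genes tested lay apart in this way was not counted, so this does not set the sirtuins apart from other genes. SIRT3 was higher by 0.28 (SE 0.0574, adjusted p = 5.86e-05) and SIRT6 by 0.16 (SE 0.0547, adjusted p = 0.00912), where libraries overlapped. Both turned negative when libraries were scaled by totals alone, SIRT3 to -0.06 and SIRT6 to -0.19 (adjusted p = 0.00241). That scaling moved the median of all genes from -0.12 to -0.47, and relative to that median SIRT6 stood 0.28 higher both as reported and under total counts, and SIRT3 0.40 higher both times. SIRT5 did not pass as reported (0.05, adjusted p = 0.633), but totals alone turned it to -0.30 with adjusted p = 0.00201.

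Between the hairpins of a target, no sirtuin passed. For shSHCBP1_2 against shSHCBP1_1, 0 of 7 were higher and 0 lower, against 0.499% and 0.336% of all genes tested. At an unadjusted p under 0.05 there was 1 in each direction, and DESeq2 and limma voom called 0. SIRT6, at 0.21 higher in shSHCBP1_2, was called when only these libraries entered the fit (adjusted p = 0.00837). For set 2 against set 4, 0 of 7 were higher and 0 lower, against 1.95% and 3.32%, with 0 higher and 1 lower at an unadjusted p under 0.05 and 0 by DESeq2 and limma voom.

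The pathway lists that follow are counted against the shares of all genes tested, which were 9.34% higher and 10.5% lower in shSHCBP1_1, 15.6% and 15.4% in shSHCBP1_2, 35.6% and 38.9% in set 4 and 36.1% and 39.8% in set 2. In the shTMEM45A sets most genes passed, so a list of which most members passed was near that background. In the shSHCBP1 groups the balance of higher and lower members moved with the scaling, as it did for all genes. Several list counts of 4 or fewer there also moved by over 1.5 times when a single library was left out.

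The NAD+ on which sirtuins depend is made mainly by salvage of nicotinamide, with NAMPT as the rate-limiting enzyme. NAMPT stood at 114 ± 7.66 CPM in NC, 104 ± 2.82 in shSHCBP1_1, 99.99 ± 3.5 in shSHCBP1_2, 52.7 ± 3.14 in set 4 and 47.3 ± 3.70 in set 2 (SD, n = 3). It fell by 1.12 in set 4 and by 1.27 in set 2 (adjusted p = 1.36e-15 and 6.12e-17). The change of -0.14 in shSHCBP1_1 (adjusted p = 0.120) passed with RLE scaling (adjusted p = 0.0160), with DESeq2 (adjusted p = 0.00780) and with only the libraries compared (adjusted p = 0.0389). The change of -0.19 in shSHCBP1_2 (adjusted p = 0.0179) was lost without NC replicate 1 or 2 or the third shSHCBP1_2 library, and was -0.03 with totals (adjusted p = 0.757). Of 17 tested genes of NAD synthesis and salvage, 2 rose and 3 fell in shSHCBP1_1, 1 rose and 3 fell in shSHCBP1_2, and 7 rose and 6 fell in each shTMEM45A set. With RLE scaling or DESeq2, 5 fell in shSHCBP1_1 and 7 in shSHCBP1_2, and with totals 4 rose in each. PNP, which splits nicotinamide riboside and purine nucleosides, fell by 0.49 and 0.61 in the shSHCBP1 groups and by 0.99 and 1.14 in sets 4 and 2. NMNAT1, the nuclear enzyme that completes NAD+, rose by 1.49 and 1.31 in sets 4 and 2 (adjusted p = 1.04e-07 and 1.03e-06). Its rises of 0.70 and 0.59 in the shSHCBP1 groups were each lost without some single libraries, and in shSHCBP1_2 also with RLE scaling (adjusted p = 0.0605), DESeq2 (adjusted p = 0.0603) and limma voom (adjusted p = 0.0671).

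Other enzymes compete with sirtuins for NAD+. PARP1, the main poly(ADP-ribose) polymerase of DNA repair, stood at 1019 ± 5.78 CPM in NC, 818 ± 8.59 in shSHCBP1_1, 762 ± 11 in shSHCBP1_2, 437 ± 3.91 in set 4 and 407 ± 15.1 in set 2. It fell by 0.32, 0.42, 1.22 and 1.32 in the same order (adjusted p = 1.85e-07, 3.60e-10, 1.16e-22 and 1.35e-23). Of 15 tested NAD-consuming enzymes other than sirtuins, 2 rose and 3 fell in each shSHCBP1 group, 2 rose and 10 fell in set 4, and 3 rose and 10 fell in set 2. With RLE scaling 5 fell in shSHCBP1_1 and 1 rose in shSHCBP1_2, while with totals 4 rose and 1 fell in shSHCBP1_1 and 5 rose in shSHCBP1_2. In set 4, 1 rose with either of these scalings. Their median change was -0.58 in set 4 and -0.59 in set 2, beside -0.03 and -0.04 for all genes tested. SARM1, an NAD+ hydrolase known from axons, fell by 1.88 and 2.05 in sets 4 and 2, and the tankyrase TNKS2 by 1.27 and 1.35. PARP2 fell by 0.23 and 0.45 in the shSHCBP1 groups, the first of these lost with totals (-0.09, adjusted p = 0.246). PARP2 was also lower in the shTMEM45A sets, at 158 CPM in NC, 74.1 in set 4 and 69.4 in set 2.

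The zinc-dependent histone deacetylases, which need no NAD+, were read beside the sirtuins. Of 11 tested, 0 rose and 3 fell in shSHCBP1_1, 0 rose and 5 fell in shSHCBP1_2, 4 rose and 6 fell in set 4, and 3 rose and 6 fell in set 2. In shSHCBP1_1, 5 fell with RLE scaling and 0 with totals, and in shSHCBP1_2, 2 fell with totals. In set 4, 2 rose with RLE scaling and 1 with totals, and in set 2, 1 rose with totals. HDAC6, a tubulin deacetylase like SIRT2, fell by 0.33 and 0.51 in the shSHCBP1 groups (adjusted p = 0.00130 and 2.44e-06), and the first of these was lost with totals (-0.18, adjusted p = 0.0599). HDAC6 was also lower in the shTMEM45A sets, at 70.0 CPM in NC, 40.9 in set 4 and 34.9 in set 2. In the shTMEM45A sets HDAC5 rose by 0.48 and 0.47, and HDAC4 fell by 1.06 and 0.99 and HDAC9 by 1.15 and 1.04.

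Regulators and substrates of SIRT1 did not move in a single direction. Of 19 tested, 4 rose and 1 fell in shSHCBP1_1, 6 rose and 2 fell in shSHCBP1_2, 7 rose and 9 fell in set 4, and 7 rose and 10 fell in set 2. In shSHCBP1_1, 2 rose and 2 fell with RLE scaling and 7 rose with totals. In shSHCBP1_2, 4 fell with RLE scaling, 12 rose and 0 fell with totals, and 10 rose with only the libraries compared. Without NC replicate 2, 6 fell in set 2. CCAR2, which binds and inhibits SIRT1, stood at 80.6 ± 7.49 CPM in NC, 101 ± 1.34 in set 4 and 96.8 ± 9.91 in set 2. It rose by 0.33 and 0.26 there (adjusted p = 9.15e-05 and 0.000935), and both calls were lost under total-count scaling. RPS19BP1, known as an activator of SIRT1, was at 78.5 ± 0.939 CPM in NC, and rose to 288 ± 14.8 in set 4 and to 334 ± 9.80 in set 2. The acetyltransferases KAT5 and EP300, which act opposite to SIRT1 on several proteins, fell by 1.68 and 1.74 in set 4 and by 1.92 and 1.82 in set 2. PPARGC1A, a coactivator that SIRT1 deacetylates, was at 1.57 ± 0.375 CPM in NC and rose by 1.08 and 1.14 in the shSHCBP1 groups, the first of these lost without NC replicate 1 or the second shSHCBP1_1 library.

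Among 10 partners and substrates of SIRT2, 2 rose and 3 fell in each shSHCBP1 group, and 6 rose and 4 fell in each shTMEM45A set. With RLE scaling 0 rose in shSHCBP1_1 and 5 fell in shSHCBP1_2, and with totals 1 fell in each. Its tubulin substrates went in opposite directions in the shTMEM45A sets: TUBA1B, at 566 ± 44.5 CPM in NC, fell to 138 ± 13.8 in set 4 and to 97.7 ± 10.8 in set 2, while TUBA1A rose from 164 ± 7.30 to 384 ± 7.10 and 371 ± 28.4. Tubulin genes are near-identical in sequence and reads may be split between them, so these values are uncertain.

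Of 12 partners and substrates of SIRT6 and SIRT7, 3 rose and 4 fell in shSHCBP1_1, 4 rose and 4 fell in shSHCBP1_2, and 4 rose and 6 fell in each shTMEM45A set. With totals 5 rose and 2 fell in shSHCBP1_1, and 8 rose and 2 fell in shSHCBP1_2. PRKDC, the DNA-dependent protein kinase that SIRT6 holds at breaks, had a level of 700.01 ± 10.1 CPM in NC. Its log2 change was -0.63 and -0.66 in the shSHCBP1 groups and -2.50 and -2.67 in sets 4 and 2, all past the test. ELK4, which brings SIRT7 to promoters, fell by 1.99 and 1.88 in sets 4 and 2. MYC, which interacts with both SIRT6 and SIRT7, rose by 0.27, 0.48, 0.81 and 0.32 in shSHCBP1_1, shSHCBP1_2, set 4 and set 2.

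Of 18 tested substrates of the mitochondrial sirtuins, 1 rose and 8 fell in shSHCBP1_1, 1 rose and 11 fell in shSHCBP1_2, 4 rose and 9 fell in set 4, and 5 rose and 9 fell in set 2. In shSHCBP1_1, 13 fell with RLE scaling or DESeq2 and 4 with totals, and in shSHCBP1_2, 3 rose and 6 fell with totals. IDH2, a matrix dehydrogenase that SIRT3 activates, fell by 0.45 and 0.51 in the shSHCBP1 groups (adjusted p = 6.45e-07 and 2.49e-08), and SDHA, a subunit of complex II, by 0.33 and 0.45. Among listed genes that passed in both shTMEM45A sets, the largest rises were those of ATP5PO and NDUFA9, both respiratory subunits. Their changes were 2.01 and 1.48 in set 4 and 2.10 and 1.64 in set 2. These rises do not stand for every respiratory subunit listed, of which SDHA is another. OPA1, which shapes the inner membrane, fell by 1.17 and 1.32, and MCCC2, an enzyme of leucine breakdown, by 1.2 and 1.25.

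**Figure D4:**
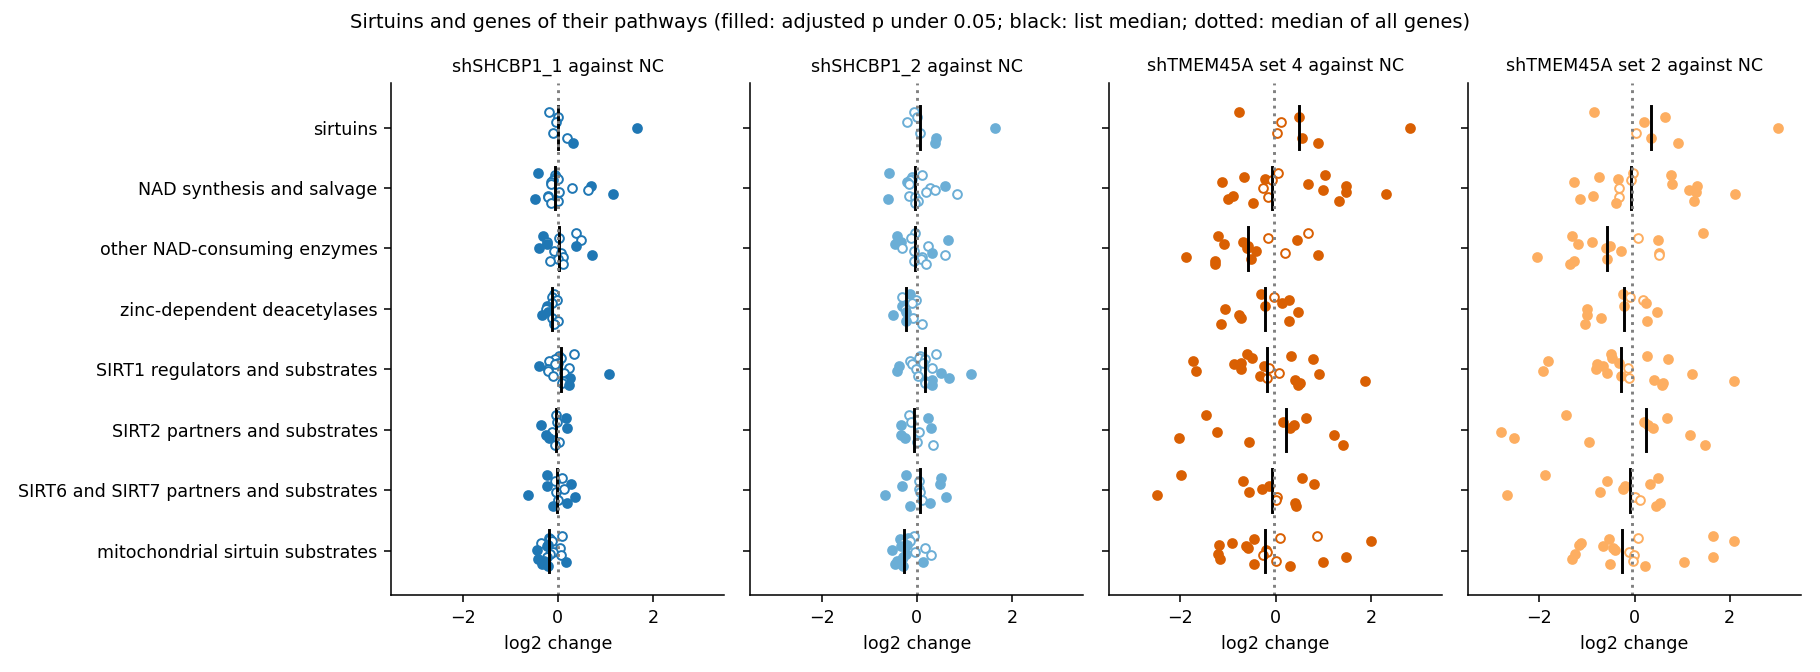
Log2 change against NC (x) of the 7 sirtuins and of each pathway list (y), in a panel per hairpin group. Points are genes, filled where the adjusted p was under 0.05, black lines are list medians and dotted lines the median of all genes; the NAD-consuming enzymes have medians of -0.58 and -0.59 in sets 4 and 2.

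Changes in the shTMEM45A sets went with transcript length. Lengths of same-named mouse genes were used, since human lengths were not at hand, over 9754 genes at a mean log2 CPM of 2 or more. Across these genes, length and log2 change had a Spearman's rho of -0.42 in set 4 and -0.41 in set 2, and -0.02 and 0.02 in the shSHCBP1 groups. Genes share libraries and are not independent, so no p is given. In set 4 the median change was 0.49 in the shortest of 5 equal bins of genes and -0.62 in the longest. SIRT1 was the longest sirtuin by this measure, at 3822 nucleotides, and SIRT3 the shortest at 1100, with SIRT7 at 1218.

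With the length trend subtracted, SIRT1 stood at -0.39 in set 4 and -0.45 in set 2, and SIRT7 at 0.47 and 0.51. SIRT2 stood at 0.38 and 0.53 and SIRT4 at 2.66 and 2.85. SIRT1 and SIRT7 thus kept their sign at between 0.5 and 0.6 of the size, and SIRT4 moved little. The mean level of SIRT4 lay below that of the genes that set the trend, so the trend at its level is not known. SIRT6 stood at 0.36 in set 4 and 0.17 in set 2. SIRT3 changed sign, to -0.33 and -0.26, and SIRT5 stood at -0.23 and -0.21. In the comparison of shTMEM45A with shSHCBP1, SIRT6 came to 0.01 and SIRT7 to 0.17 by the same step. These values carry no test, and the part of length in the reported changes was not tested further.

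**Figure D5:**
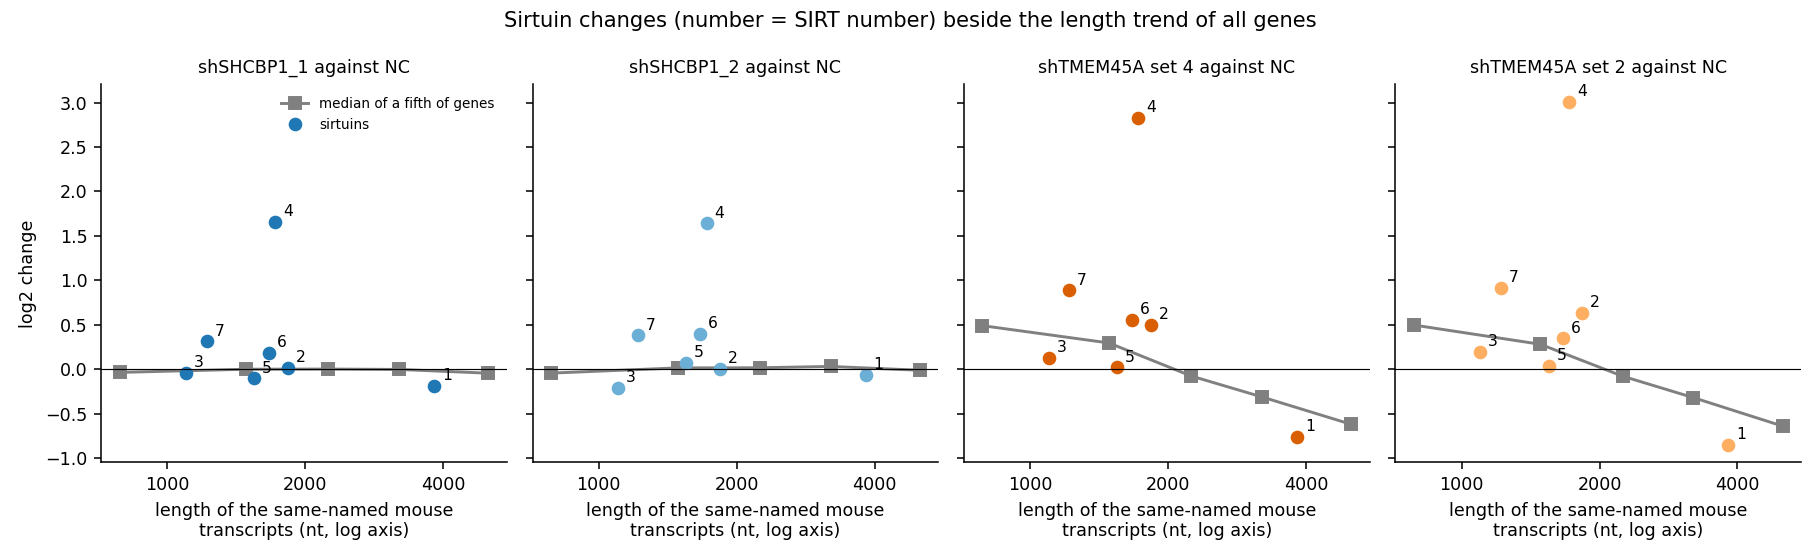
Log2 change against NC (y) of the 7 sirtuins, marked by their number, and median of each of 5 length bins of 9754 genes (grey squares) by length of the same-named mouse transcripts (x, nucleotides, log axis), in a panel per hairpin group. The grey line falls from 0.49 to -0.62 in set 4 and is near 0 in the shSHCBP1 groups; SIRT4 stands far above it in every panel.

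Genes whose profile over the 5 group means came closest to each sirtuin were found by the root mean square difference of centred log2 CPM. Candidates were genes at a mean log2 CPM of 2 or more. The sirtuin nearest to SIRT7 was SIRT2, at 0.14, but 713 other genes came nearer to SIRT7 than that, led by PSMD12, a proteasome subunit, and GMPPB, an enzyme of GDP-mannose synthesis, at 0.01 each. SIRT1 was most like ACSL4, an acyl-CoA synthetase, and FOXJ3, a transcription factor, at 0.01 and 0.02. SIRT2 was most like ACTR1A, a dynactin subunit, and KDELR2, a retrieval receptor for endoplasmic reticulum proteins, at 0.01 and 0.03. For SIRT4, FOXA3, a transcription factor, and METTL18, a histidine methyltransferase, came closest at 0.16 and 0.17. Its median difference over all genes compared was also the largest, at 1.05, and it had only 12 to 17 counts a library in NC. The mean level of SIRT4 lay below that of every candidate, so no gene of its own level was compared with it.

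For SIRT3 the closest genes were YEATS4 and GLT8D1, for SIRT5 BCLAF1 and ATG14, and for SIRT6 EYA3 and FBXO4, all at 0.01 to 0.04. The median difference over the 11018 genes compared was 0.33 to 1.05, depending on the sirtuin. With 5 groups to match over, such closeness is a description of these libraries.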

How the data were processed

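RNA of 15 libraries labelled MDA-MB-468 was measured. The authors deposited 2 tables of raw counts, whole numbers per gene symbol, with no normalization. The submitters' processing notes name mm10 and the labels give the mouse, whereas the symbols are human; for the aligner and counter, the sources used here give no name. Names on more than 1 row were left out (200 names, 1768 rows, SOD2 among them).

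Genes passing filterByExpr (count minimum 10, total minimum 15; 19051 genes) entered 1 fit of 5 group means in edgeR 4.0.16 (R 4.3.3): TMM scaling, quasi-likelihood F test, Benjamini-Hochberg adjustment over all genes, threshold 0.05. The SE of a log2 change is its size divided by the root of its F value, and levels are CPM after TMM scaling. At this depth 3 counts are at most 0.218 CPM, for counting error only. DESeq2 1.42.0 and limma 3.58.1 voom were alternatives. The scripts were tested on simulated data.

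Members and lists were chosen with earlier results of these data known. Named genes are the sirtuins, for each list and target at most 2 rises and 2 falls that passed in both groups, NAMPT, PARP1, CCAR2, PSMD13, the targets, and the 2 genes most like each sirtuin. BMAL1 and 12 other listed genes were not tested. Each hairpin group was compared with NC, hairpins within a target, and the targets with each other. Set 4 was assigned to its labelled group by elimination. Sequences were not used here.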

Additional observations from a re-analysis of the deposited data

Results flagged for a closer look

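For 6 of the 7 sirtuins the effect of the shTMEM45A hairpins differed from that of the shSHCBP1 hairpins when the difference itself was tested (edgeR quasi-likelihood test over 19051 genes, means of both groups of each target, 6 libraries against 6). SIRT4 stood 1.27 higher on the log2 scale with shTMEM45A (adjusted p = 6.93e-08), SIRT7 0.56 higher (adjusted p = 1.16e-10) and SIRT2 0.55 higher (adjusted p = 1.03e-11), each in 6 of 6 libraries. SIRT1 stood at -0.68 (adjusted p = 3.81e-11), lower in 6 of 6 libraries. SIRT3 was 0.28 higher (adjusted p = 5.86e-05) in 6 of 6 and SIRT6 0.16 higher (adjusted p = 0.00912) in 5 of 6. The 2 targets stand in separate count tables, and the table and the target cannot be told apart here. Of all genes tested, 35.2% were higher and 44.1% lower in this comparison, beside 5 and 1 of the 7 sirtuins. Most genes passed in 1 direction or the other, so 6 of 7 sirtuins passing lay near that background. Scaled by totals alone, SIRT3 came to -0.06, and SIRT6 to -0.19 (adjusted p = 0.00241) and SIRT5 to -0.30 (adjusted p = 0.00201).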

How the results depend on the processing

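The rises of SIRT4 and SIRT7 against NC, and in sets 4 and 2 those of SIRT2 and the fall of SIRT1, kept their direction and passed the threshold under every alternative run with a test (scalings, filters, DESeq2, limma voom, only the libraries compared, each library left out). Calls changed for SIRT1, SIRT3 and SIRT6 in some comparisons, as given beside their values. Subtracting the length trend turned SIRT3 to -0.26 in set 2 and to -0.16 for shTMEM45A against shSHCBP1. The sources do not pair the libraries: same-numbered libraries deviated from their group means with correlations from -0.07 to 0.14, differently numbered ones from -0.18 to 0.13. With the replicate number as a replicate block and only the compared libraries, 1 sirtuin (SIRT6) and 1628 genes passed for shSHCBP1_2 against shSHCBP1_1, and without the block 1 and 1674, against 0 and 159 as reported. Under the block, SIRT6 in shSHCBP1_1 (0.20, adjusted p = 0.0365) and SIRT3 in shSHCBP1_2 (-0.20, adjusted p = 0.0144) also passed. For shSHCBP1_2 against shSHCBP1_1, DESeq2 gave 425 genes, and leaving out a library gave 27 to 54. With only the compared libraries, 5708 genes passed for shSHCBP1_1 (3787 as reported) and 129 for set 2 against set 4 (1004 as reported). The cause was not tested.

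Scaling by totals moved the median log2 change of all genes from 0.01 to 0.15 in shSHCBP1_1, from 0.01 to 0.17 in shSHCBP1_2, from -0.03 to -0.23 in set 4, from -0.04 to -0.23 in set 2 and from -0.12 to -0.47 between targets; without a filter the last was -0.34. The share of calls that were higher was 47.0% in shSHCBP1_1 (29.1% with RLE, 28.7% with DESeq2, 86.1% with totals), 50.3% in shSHCBP1_2 (34.6%, 34.6%, 81.7%) and 44.3% between targets (29.7% with totals). For shSHCBP1_2 against shSHCBP1_1 it was 59.7% (80.7% with totals, 41.0% with upper quartile, 45.2% with DESeq2).

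Some changes turned sign. With totals, shSHCBP1_1 gave SIRT3 0.10, SIRT5 0.040, NAMPT 0.0032 and PSMD13 0.082; shSHCBP1_2 gave SIRT1 0.10 and PSMD13 0.13; set 4 gave SIRT3 -0.068 and SIRT5 -0.17; set 2 gave SIRT5 -0.16. Between targets, totals gave SIRT3 -0.064, SIRT5 -0.30 and SIRT6 -0.19, the last 2 past the threshold (adjusted p = 0.00201 and 0.00241). RLE and DESeq2 each gave SIRT2 -0.051 and -0.052 in shSHCBP1_1; in shSHCBP1_2 both gave SIRT2 -0.070, SIRT5 -0.011 and SHCBP1 -0.071. In set 4 SIRT5 was -0.0045 with RLE and -0.0047 with DESeq2, and in set 2 it was -0.0057 without a filter. Leaving out a library, SIRT2 ran from -0.017 to 0.032 and SIRT3 from -0.096 to 0.056 in shSHCBP1_1. In shSHCBP1_2, SIRT2 ran from -0.0027 to 0.025, PSMD13 from -0.056 to 0.0091 and SHCBP1 from -0.032 to 0.042. SIRT5 ran from -0.068 to 0.085 in set 4, from -0.026 to 0.073 in set 2 and from -0.0020 to 0.074 between targets.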
